A study of Eucalyptus nitens with 12 samples.

Results

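Eucgr.D00476, Eucgr.A01324 and Eucgr.C00246 are the 3 secondary-wall cellulose synthase (CesA) genes of Eucalyptus grandis, and they were followed here in cambial scrapings of Eucalyptus nitens trees with low or high Kraft pulp yield (KPY), the mass of pulp obtained from a mass of wood. The members were taken by gene identifier: every transcript assigned to 1 of these 3 genes was kept, of 18778 genes with a transcript in either trial and 16184 with a transcript in both. This gave 4 of 26279 transcripts in the Meunna trial, because Eucgr.A01324 has 2 there, and 3 of 23917 transcripts in the Florentine trial. The closest Arabidopsis genes are CESA8 for Eucgr.D00476, CESA4 for Eucgr.A01324 and CESA7 for Eucgr.C00246.

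Cellulose is made at the plasma membrane by a complex whose catalytic subunits are CesA proteins. In Arabidopsis, CESA4, CESA7 and CESA8 work together in the complex that lays down the thick secondary wall of xylem vessels and fibres, and loss of any of them leaves collapsed xylem vessels, the irregular xylem phenotype. CESA1, CESA3 and the CESA2 and CESA6 group make the complex of primary walls, which surround cells that still grow. Wood is mostly secondary wall, so the secondary-wall genes are among the most used genes of wood-forming tissue.

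RNA was sequenced from 12 bulks of E. nitens, where each trial, Meunna and Florentine, gave 3 bulks per KPY class. All trees are labelled as 20 years old, all grew outdoors without an experimental treatment, and the classes were drawn from the extremes of KPY. By the study's dates, fewer years than the labelled age lay between the establishment of the trials and their sampling. A bulk is RNA pooled from several trees, so the spread between bulks is not that between single trees. The study reports that KPY was positively correlated with stem diameter in both trials, so KPY class and growth cannot be told apart. Growth and other traits of the trees were not analysed here. Reads were mapped to the genome of E. grandis, a related species. Read counts totalled 49489614 to 89987549 per Meunna library, every low KPY library being smaller than every high KPY library, and 44538273 to 53775708 per Florentine library. The smallest count of a member in any library, 13583, carries a counting error of 0.858%. Levels are given as CPM, counts scaled to a common library total, on library sizes corrected by the trimmed mean of M values (TMM).

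The labels call the tissue xylem. The closest homologs of PXY, a receptor kinase of the cambium, and of HB8, a factor of the procambium, and those of XCP1 and TED7, genes of developing vessel cells, were detected in all 12 libraries. Markers of phloem or bark were not examined.

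All 3 genes were lower in low KPY trees in both trials, and by nearly the same factor within a trial. In Meunna the transcripts of low KPY bulks stood at 19.2% to 19.9% of the high KPY level, a fall of 5.02 to 5.21-fold. In Florentine they stood at 33.5% to 34.4%, a fall of 2.91 to 2.98-fold. In bulk tissue, fewer cells that make secondary walls and less CesA RNA per such cell cannot be told apart.

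Eucgr.D00476, the CESA8 homolog, was measured in Meunna as transcript CUFF.16759 at 1183, 1325 and 1534 CPM in the high KPY bulks and 314, 197 and 285 CPM in the low KPY bulks. The lowest high KPY bulk was 3.77 times the highest low KPY bulk, and bulk 2 was the lowest of the low KPY class. The log2 fold change, low relative to high KPY, was -2.35 (SE 0.21, edgeR quasi-likelihood adjusted p = 0.00257).

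Eucgr.A01324, the CESA4 homolog, has transcripts CUFF.1384 and CUFF.1383 in Meunna. CUFF.1384 had 1767, 2142 and 2276 CPM in high KPY and 534, 299 and 397 CPM in low KPY bulks. CUFF.1383 had 1213, 1525 and 1698 CPM in high KPY and 348, 188 and 316 CPM in low KPY bulks. For each transcript all low KPY values lay below all high KPY values, and again bulk 2 was the lowest. The log2 fold changes were -2.33 (SE 0.24, adjusted p = 0.00258) for CUFF.1384 and -2.38 (SE 0.26, adjusted p = 0.00286) for CUFF.1383. The study's own transcript coordinates place both on overlapping stretches of the genome, so a read may have been counted for each of them and they are not independent measurements. Their ratio, CUFF.1384 to CUFF.1383, was 1.46, 1.40 and 1.34 in the high KPY bulks and 1.54, 1.59 and 1.26 in the low KPY bulks, with overlapping classes. The ratio differed by 0.06 on the log2 scale (2-sided exact permutation p = 0.70, where 3 bulks against 3 cannot give less than 0.10).

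Eucgr.C00246, the CESA7 homolog, was measured in Meunna as CUFF.13535 at 2001, 2200.2 and 2437 CPM in high KPY and 517, 338 and 456 CPM in low KPY bulks. The classes were 3.87 times apart at their nearest values. The log2 fold change was -2.34 (SE 0.19, adjusted p = 0.00257).

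In Meunna 4 of 4 member transcripts fell in low KPY at an adjusted p below 0.05, where 16.9% of all transcripts tested did. All 4 also had every low KPY library below every high KPY library, as had 26.7% of all transcripts. Only 1.55% to 1.73% of the transcripts of the trial had a lower log2 fold change than a member. Over all transcripts the median log2 fold change was 0.00.

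In Florentine the low KPY bulks were further apart. Eucgr.D00476 (CUFF.15974) had 2344, 2081 and 2404 CPM in high KPY and 1124, 365 and 809 CPM in low KPY bulks. Eucgr.A01324 (CUFF.1122) had 4459.5, 3843 and 4651 CPM in high KPY and 2057, 752 and 1531 CPM in low KPY bulks. Eucgr.C00246 (CUFF.13487) had 4154, 3476 and 4214 CPM in high KPY and 1989, 738 and 1344 CPM in low KPY bulks. For each gene the order of the low KPY bulks was the same, with bulk 1 the highest and bulk 2 the lowest, and the classes did not overlap, their nearest values being 1.75 to 1.87 times apart. Because transcripts were predicted separately in each trial, a level is not compared between trials.

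The log2 fold changes in Florentine were -1.57 for Eucgr.D00476 (SE 0.39, adjusted p = 0.0248), -1.58 for Eucgr.A01324 (SE 0.37, adjusted p = 0.0216) and -1.54 for Eucgr.C00246 (SE 0.36, adjusted p = 0.0219). Thus 3 of 3 members fell by edgeR's quasi-likelihood test, where 20.0% of all transcripts did, and all 3 had every low KPY library below every high KPY library, as had 29.0% of all transcripts. From 1.76% to 2.12% of transcripts had a lower log2 fold change, and the median over all transcripts was 0.02. These calls depend on 3 of the 6 libraries: without high KPY bulk 1, high KPY bulk 3 or low KPY bulk 3 the quasi-likelihood test called 0 of 3 members, at adjusted p between 0.0652 and 0.0725, while without 1 of the other 3 libraries it still called 3 of 3, at adjusted p between 0.0117 and 0.0453. Without the former libraries it called 0, 0 and 1227 transcripts lower in the whole trial (10009, 9701 and 10354 transcripts had an unadjusted p under 0.05), while edgeR's exact test and DESeq2 still called 3 of 3 members lower without each of them.

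**Figure D1:**
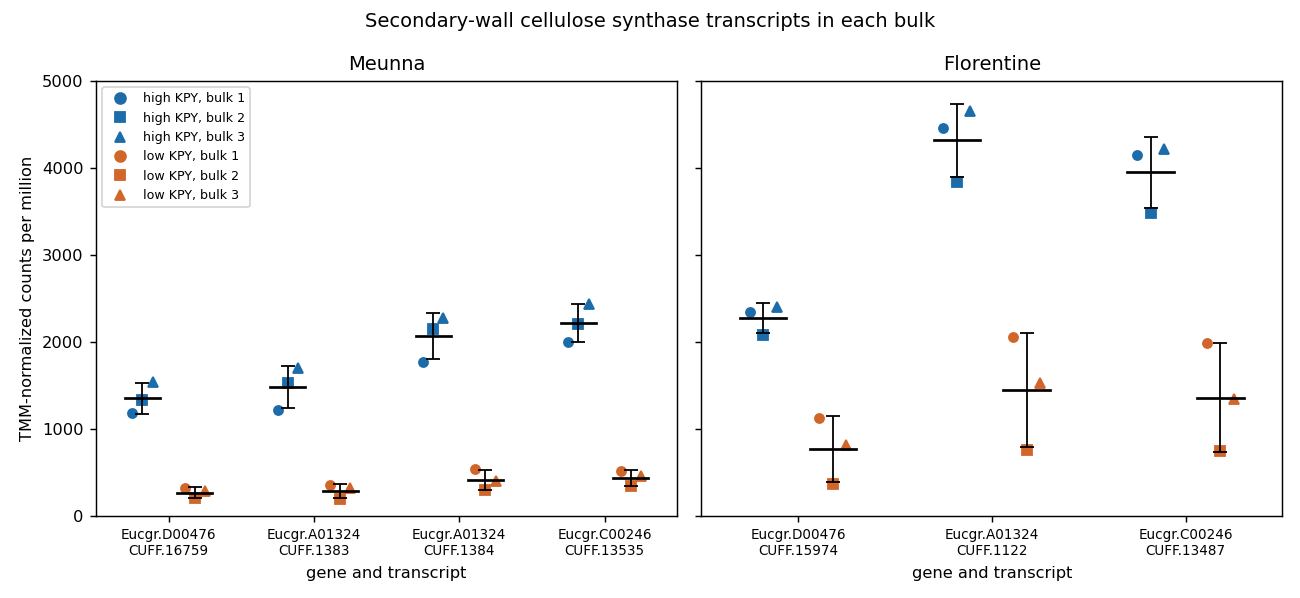
TMM-normalized CPM of each transcript of the 3 secondary-wall CesA genes, with 1 point per bulk, the mean as a horizontal line and the SD over 3 bulks as a bar, for high KPY (blue) and low KPY (orange) in Meunna (left) and Florentine (right). For Eucgr.D00476 in Meunna the high KPY bulks lie between 1183 and 1534 CPM and the low KPY bulks between 197 and 314 CPM, and no transcript shows an overlap of the classes in either trial.

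The members varied more between low KPY bulks than between high KPY bulks. The coefficient of variation over the 3 bulks was 9.87% to 16.6% in high KPY and 20.8% to 29.7% in low KPY in Meunna. In Florentine it was 7.53% to 10.4% in high KPY and 45.4% to 49.7% in low KPY. With 3 bulks per class this difference in spread was not tested.

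The 3 members together, Eucgr.A01324 entering by its more abundant transcript, took 0.468% to 0.536% of all counts of a high KPY library and 0.0919% to 0.150% of a low KPY library in Meunna. In Florentine they took 0.862% to 0.994% in high KPY and 0.217% to 0.556% in low KPY. These shares use no scaling factor, and the classes did not overlap in either trial.

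The fall was larger in Meunna than in Florentine in these bulks, but the difference between trials did not pass the test. The trials also differed in site, in month and year of sampling, in years since establishment, in trees per bulk and in library depth, which cannot be told apart here. With counts summed per gene and the 12 libraries in 1 fit, the Meunna minus Florentine log2 fold change was -0.72 for Eucgr.D00476 (SE 0.45, adjusted p = 0.755), -0.72 for Eucgr.A01324 (SE 0.45, adjusted p = 0.754) and -0.75 for Eucgr.C00246 (SE 0.41, adjusted p = 0.735). The quasi-likelihood test called 0 of 3 members and 0% of 16184 genes lower in Meunna than in Florentine, and also none higher, while 1150 genes had an unadjusted p under 0.05. DESeq2 called 51 genes lower and 59 higher, none of them a member. The difference between trials moved with the low KPY bulks of Florentine: without bulk 1 it was -0.35 for Eucgr.D00476, -0.39 for Eucgr.A01324 and -0.38 for Eucgr.C00246, and without bulk 2 it was -1.03, -0.999 and -1.01.

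The question of stoichiometry was whether the 3 subunits kept their proportions as their levels fell. For each library the log2 ratio of the counts of a pair of members was taken, which does not depend on the library's depth or scaling. Because the lengths of the transcripts were not used, a ratio of counts is not a ratio of molecules, and only its change between libraries of a trial is read.

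The ratio of Eucgr.A01324 to Eucgr.C00246, the CESA4 to the CESA7 homolog, was -0.18, -0.04 and -0.10 on the log2 scale in the high KPY bulks of Meunna and 0.05, -0.18 and -0.20 in the low KPY bulks. In Florentine it was 0.10, 0.14 and 0.14 in high KPY and 0.05, 0.03 and 0.19 in low KPY bulks. The classes overlapped in both trials, with means of -0.11 ± 0.07 (SD, n = 3) and -0.11 ± 0.14 in Meunna and 0.13 ± 0.02 and 0.09 ± 0.09 in Florentine.

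The ratio of Eucgr.D00476 to Eucgr.C00246, the CESA8 to the CESA7 homolog, was -0.76, -0.73 and -0.67 in the high KPY bulks of Meunna and -0.72, -0.78 and -0.68 in the low KPY bulks. In Florentine it was -0.83, -0.74 and -0.81 in high KPY and -0.82, -1.02 and -0.73 in low KPY bulks. The value of -1.02 belongs to low KPY bulk 2 of Florentine, the bulk with the lowest level of all 3 genes in that trial, and the classes overlapped around it.

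The ratio of Eucgr.D00476 to Eucgr.A01324, the CESA8 to the CESA4 homolog, was -0.58, -0.69 and -0.57 in the high KPY bulks of Meunna and -0.77, -0.60 and -0.48 in the low KPY bulks. In Florentine it was -0.93, -0.88 and -0.95 in high KPY and -0.87, -1.04 and -0.92 in low KPY bulks. Here too the classes overlapped in both trials.

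Averaged over the trials, the low minus high KPY difference of these log2 ratios was -0.02 for Eucgr.A01324 to Eucgr.C00246, with a 95% permutation interval of -0.12 to 0.09. It was -0.04 for Eucgr.D00476 to Eucgr.C00246, with an interval of -0.14 to 0.06, and -0.01 for Eucgr.D00476 to Eucgr.A01324, with an interval of -0.13 to 0.09. In 2-sided exact permutation tests within trials, which can reach p = 0.005 here, the p-values were 0.635, 0.52 and 0.795, and all 3 were 0.795 after adjustment over the 3 pairs. No change of proportion was detected. The intervals allow a change of a pair's ratio of between 0.905 and 1.06-fold, beside falls of 2.91 to 5.21-fold of the genes themselves. The SE of a log2 ratio from counting alone was at most 0.0156 in a library.

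The bulks differed in level far more than in proportion, also within a class. Among the low KPY bulks of Florentine, the SD of the log2 level was 0.72 to 0.83 for the 3 genes, while the SD of their log2 ratios was 0.09 to 0.14. Among the low KPY bulks of Meunna these ranges were 0.31 to 0.42 for the transcripts entering the ratios and 0.05 to 0.14 for the ratios. Mean shares of the counts of the 3 members are given by trial, with Eucgr.A01324 entering by its more abundant transcript. In Meunna Eucgr.D00476 held 23.9% and Eucgr.A01324 36.6% in each KPY class. Eucgr.C00246 held 39.4% in high and 39.5% in low KPY there. In Florentine the shares in high and low KPY were 21.6% and 21.1% for Eucgr.D00476 and 41.0% and 40.6% for Eucgr.A01324. For Eucgr.C00246 they were 37.4% and 38.2%.

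**Figure D2:**
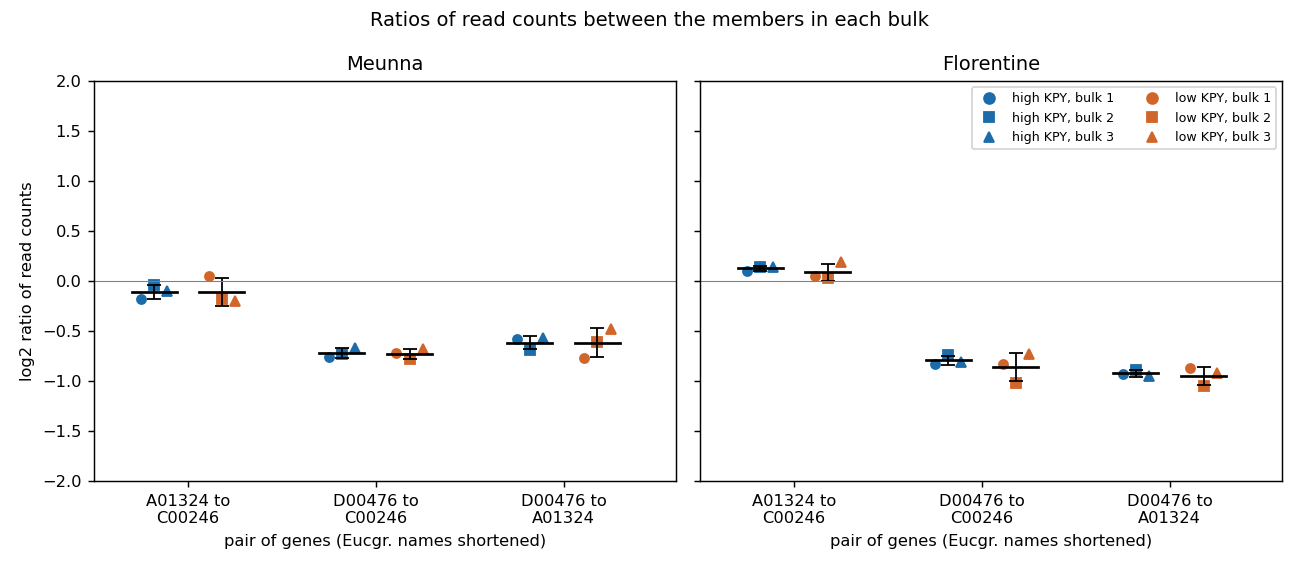
Log2 ratio of the read counts of each pair of secondary-wall CesA genes in each bulk, with the mean as a horizontal line and the SD over 3 bulks as a bar, for high KPY (blue) and low KPY (orange) in Meunna (left) and Florentine (right). The classes overlap for every pair in both trials, and the lowest low KPY value of Eucgr.D00476 to Eucgr.C00246 is -1.02 in Florentine. Ratios are of counts not corrected for transcript length.

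The genes whose pattern over the 12 libraries was most like that of the members were sought among 12222 other genes with a single transcript in each trial. Genes with several transcripts in a trial were left out. The measure was the root mean square difference of log2 CPM, centred in each trial, from the mean of the 3 members. The median difference of these genes was 1.09. The nearest was Eucgr.A01172 at 0.0713, the homolog of IRX9, needed for the xylan backbone in Arabidopsis, with log2 fold changes of -2.37 in Meunna and -1.45 in Florentine. It was followed by Eucgr.B02510 at 0.0889, annotated as a nucleotide/sugar transporter, with log2 fold changes of -2.36 and -1.40. Eucgr.G01977, annotated as an exostosin family protein, lay at 0.0970 and changed by -2.42 and -1.41 on the log2 scale. Eucgr.K02492, whose closest Arabidopsis protein has no known function, lay at 0.106 with -2.37 and -1.44. Eucgr.I00888, annotated as a DUF579 protein, lay at 0.109 with -2.21 and -1.52. These 5 were chosen for their pattern, and their fold changes are a description.

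The 9 other CesA genes, whose closest Arabidopsis genes are the primary-wall genes CESA1, CESA2 and CESA3, were mostly lower in low KPY as well, with a median fall smaller than that of the members and single transcripts on either side of them. In the counts of this and the following lists, a transcript fell or rose only if its adjusted p was below 0.05. In Meunna 10 of their 12 transcripts fell, none rose and the median log2 fold change was -1.09. In Florentine 8 of 9 transcripts, from 8 of the 9 genes, fell, none rose and the median was -0.96. Most members of this and the following lists were taken from genes that the study itself named from these libraries, so their direction is not independent evidence.

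Among them the highest mean CPM, not corrected for length, was that of Eucgr.C02801, a CESA1 homolog, which had 463 to 664 CPM in high KPY and 328 to 406 CPM in low KPY in Meunna, a log2 fold change of -0.59 (SE 0.16). In Florentine it had 678 to 737 and 334 to 510.0 CPM, a log2 fold change of -0.73 (SE 0.17). Eucgr.G03380, a CESA3 homolog, changed by -1.07 (SE 0.16) and -0.96 (SE 0.22), and these 4 changes passed the test. Eucgr.F04217, a CESA2 homolog, fell by more: its transcripts CUFF.24386 and CUFF.24387 in Meunna both changed by -2.53 (SE 0.36 and 0.38), and CUFF.22772 in Florentine by -1.39 (SE 0.38). Eucgr.F04217 was not alone in this: Eucgr.A02372, a CESA3 homolog with 2.74 to 11.3 CPM in the high KPY bulks of Meunna, changed by -2.62 (SE 0.55) in Meunna and -1.33 (SE 0.33) in Florentine. Transcript CUFF.25816 of Eucgr.H00939, a CESA1 homolog, changed by -1.84 (SE 0.59, adjusted p = 0.0479) in Florentine, but its classes overlapped. Eucgr.A02372 and Eucgr.H00939 were named after their values were seen. The transcript CUFF.3640 of Eucgr.J01639, a CESA1 homolog, was the exception in sign, with a log2 fold change of 0.65 (SE 0.63, adjusted p = 0.475) in Meunna.

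Within a library, the counts of the 3 members fell relative to the summed counts of the other CesA genes. Eucgr.A01324 entered by its more abundant transcript, while all transcripts of the other CesA genes were summed. In Meunna members and other genes are therefore not counted alike, and the size of the ratio there depends on this choice. This ratio was 2.50, 2.56 and 2.32 in the high KPY bulks of Meunna and 1.36, 0.869 and 1.03 in the low KPY bulks. In Florentine it was 4.78, 4.28 and 4.45 in high KPY and 3.30, 2.09 and 3.01 in low KPY bulks. The classes did not overlap in either trial, and the ratio was 2.30-fold lower in low KPY in Meunna and 1.64-fold lower in Florentine, which is given as a description without a test.

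The genes of the wider cellulose machinery fell with the catalytic subunits. In Meunna 7 of 7 transcripts fell, with a median log2 fold change of -1.64, and in Florentine 6 of 7, with a median of -1.33. Eucgr.H04034, a homolog of CTL2, which encodes a chitinase-like protein of secondary walls, went from 3535 ± 228 to 925 ± 230.1 CPM (mean ± SD, n = 3) in Meunna and from 6349.7 ± 486 to 2383 ± 703 CPM in Florentine, log2 fold changes of -1.93 and -1.41. Eucgr.G00035, a homolog of KOR1, a membrane endoglucanase needed for cellulose synthesis, changed by -1.55 (SE 0.15) and -1.33 (SE 0.24). Eucgr.I00378, a homolog of CSI1, which links cellulose synthase complexes to microtubules, changed by -1.64 (SE 0.15) and -1.33 (SE 0.26). All 6 of these changes passed the test. Other genes of this list came near the members or beyond them, and were named after their values were seen. Eucgr.J01392, a homolog of COBL4, changed by -2.34 (SE 0.27) and -1.53 (SE 0.31). Eucgr.F02731, another KOR1 homolog of low level, changed by -2.69 (SE 0.47) in Meunna and by -1.11 (SE 0.63), not passing the test, in Florentine. Eucgr.H04612, a COB homolog of low level, changed by -1.64 (SE 0.44) and -1.75 (SE 0.28).

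Xylan, the main hemicellulose of hardwood secondary walls, is laid down with cellulose. Of the xylan synthesis transcripts 7 of 7 fell in Meunna, with a median log2 fold change of -2.05, and 8 of 8 in Florentine, with a median of -1.39. Eucgr.I02784, a homolog of GXMT1, which methylates the glucuronic acid of xylan, changed by -2.04 (SE 0.17) and -1.47 (SE 0.26). Eucgr.F00995, a homolog of GAUT12/IRX8, changed by -1.84 (SE 0.20) and -1.06 (SE 0.25). Eucgr.A01172, the IRX9 homolog nearest to the members in pattern, is the third of this list by mean CPM.

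Of the transcripts of secondary-wall regulators 10 of 10 fell in each trial, with median log2 fold changes of -1.84 and -1.24. Eucgr.E01053, a homolog of SND1, the NAC switch of fibre secondary walls, changed by -1.85 (SE 0.15) in Meunna and -1.17 (SE 0.20) in Florentine. Eucgr.D01671, a homolog of NST2, a related switch, changed by -1.95 (SE 0.21) and -1.22 (SE 0.24). Eucgr.D01935, a homolog of the homeodomain regulator KNAT7, has 2 transcripts in each trial whose counts are close to equal, and they changed by -1.88 and -1.27. In log2 fold change all 3 of these regulators were nearer to 0 than the members in both trials, a difference that was not tested.

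**Figure D3:**
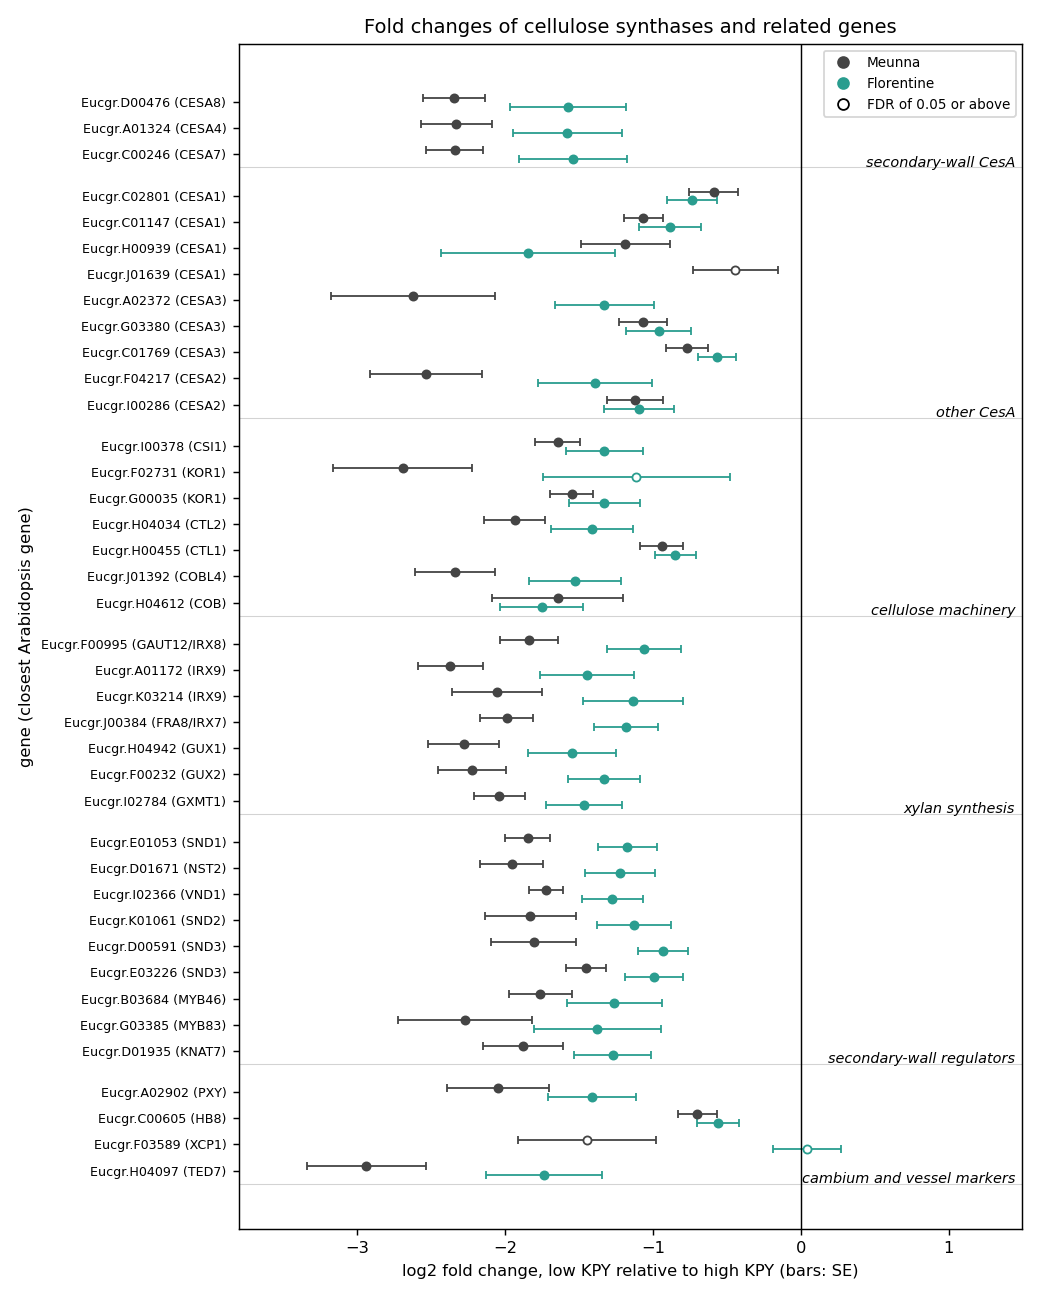
Log2 fold change, low relative to high KPY, with its SE as a bar, of the most abundant transcript of each gene of the 6 lists, in Meunna (grey) and Florentine (green). Open circles have an adjusted p of 0.05 or above, and the name of the closest Arabidopsis gene is in brackets. The 3 secondary-wall CesA genes lie between -2.35 and -2.33 in Meunna and between -1.58 and -1.54 in Florentine.

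Of the 4 marker genes of cambium and vessel cells, 3 fell with the members in both trials and 1 did not pass the test in either. By transcript, in Meunna 5 of 6 marker transcripts fell, with a median log2 fold change of -2.49, and in Florentine 4 of 5, with a median of -1.41. Eucgr.A02902, the PXY homolog, had 225 to 421 CPM in high KPY and 44.9 to 90.8 CPM in low KPY in Meunna, and 259.5 to 311 CPM against 60.6 to 141 CPM in Florentine, log2 fold changes of -2.05 (SE 0.35) and -1.41 (SE 0.30). Eucgr.C00605, the HB8 homolog, changed less, by -0.70 (SE 0.13) and -0.56 (SE 0.14). Eucgr.H04097, the TED7 homolog, has 3 transcripts of nearly equal counts in Meunna, which therefore weigh on the median there: they had 10.9 to 24.5 CPM in high KPY and 1.34 to 3.46 CPM in low KPY bulks, log2 fold changes of -3.10, -3.10 and -2.94. Its 2 transcripts in Florentine changed by -1.79 and -1.74, and it too was named after its values were seen. Eucgr.F03589, the homolog of the vessel peptidase XCP1, had a log2 fold change of -1.45 (SE 0.46, adjusted p = 0.058) in Meunna and 0.04 (SE 0.23, adjusted p = 0.891) in Florentine. None of the 4 markers was at 0 in a library. The part of a different cell makeup of the scrapings in the fall of the CesA genes was not tested.

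Bulk 2 was the lowest of the low KPY bulks in several of these lists, but not in all. Relative to the high KPY mean of its trial, the median log2 level of the members in the low KPY bulks 1, 2 and 3 was -2.08, -2.77 and -2.25 in Meunna and -1.02, -2.52 and -1.49 in Florentine. For xylan synthesis it was -1.73, -2.54 and -2.17 in Meunna and -0.90, -2.03 and -1.26 in Florentine, and for the regulators -1.51, -2.33 and -1.85 and -0.87, -1.81 and -1.15. In each of these 3 lists bulk 1 was the least and bulk 2 the most reduced in both trials. The median of the cambium and vessel markers had the same order, with -1.96, -2.98 and -2.56 in Meunna and -1.01, -2.22 and -1.25 in Florentine. The other CesA genes differed from this order in Meunna, with -1.17, -1.11 and -1.03, and followed it in Florentine, with -0.61, -1.52 and -1.04. So did the cellulose machinery, whose low KPY bulks were close together in Meunna, with -1.64, -1.72 and -1.74, and which had -0.96, -2.01 and -1.32 in Florentine.

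**Figure D4:**
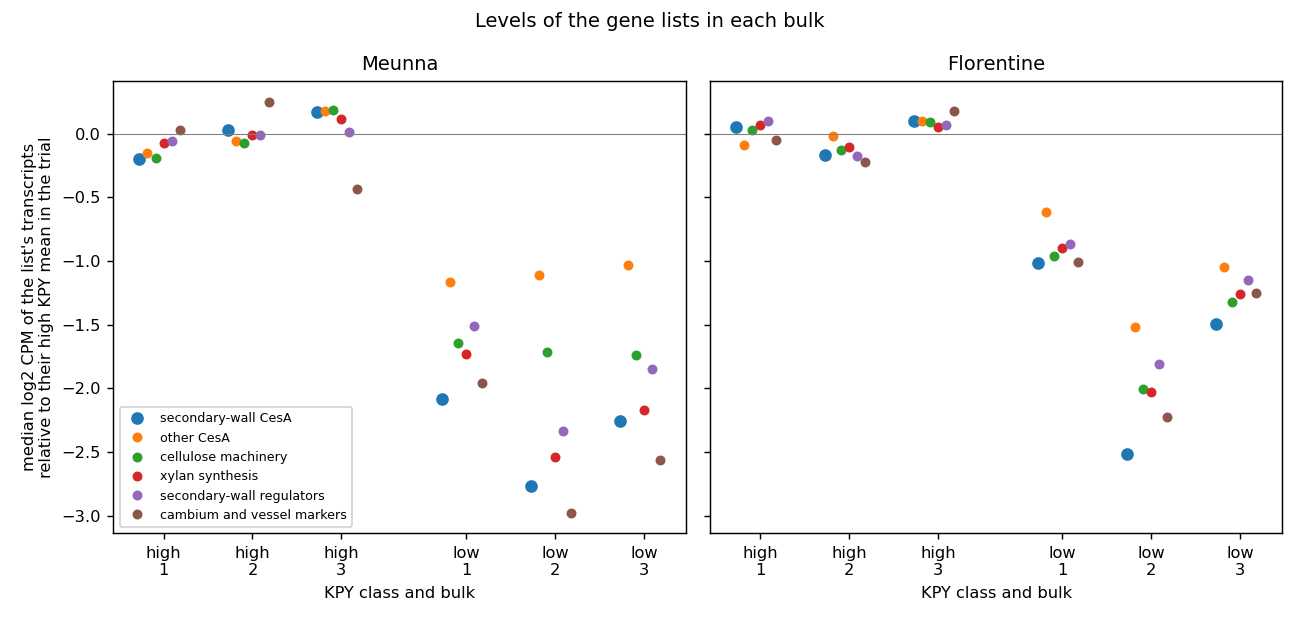
Median log2 CPM of the transcripts of each list in each bulk, relative to the mean of the 3 high KPY bulks of the same trial (horizontal line at 0), in Meunna (left) and Florentine (right). Low KPY bulk 2 holds the lowest median of the secondary-wall CesA genes, -2.77 in Meunna and -2.52 in Florentine.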

How the data were processed

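Reads of the 6 libraries of a trial were aligned by the authors with TopHat against E. grandis, of a genome version not named in the sources, transcripts were predicted with Cufflinks, and reads per bulk were counted with BEDtools. The authors deposited whole-number read counts per transcript, not normalized, with a filter of 1 CPM in at least 3 libraries already met. The authors meant to exclude reads of multiple positions through a TopHat setting that limits their number; whether reads shared by CesA paralogs were all removed cannot be seen from the counts.

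Counts were fitted per trial over all transcripts with edgeR 4.0.16 in R 4.3.3 (quasi-likelihood F test, TMM normalization, KPY class as the only factor), with Benjamini-Hochberg adjustment and a threshold of 0.05. DESeq2 1.42.0 was an alternative. The standard error is the log2 fold change divided by the square root of F. The trial by KPY interaction was fitted on counts summed per gene. Ratios between members were tested over all 400 relabelings within trials (numpy and Python 3).

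Likeness used log2 CPM with a prior count of 2. Tests were checked on simulated data whose spread was smaller than that of the members in the low KPY bulks of Florentine. It was also smaller than that of most member transcripts in the low KPY bulks of Meunna. For the ratios between members it was smaller than in the low KPY bulks of both trials. The same held for the ratios with Eucgr.A01324 in the high KPY bulks of Meunna. The check therefore does not cover results at those spreads. All transcripts of the members were named, and of each list the 3 genes with the highest mean CPM and any transcript whose log2 fold change had the opposite sign. The members and the lists were chosen with earlier results of these data known. The planned test of the members against the other CesA genes is given without a p for that reason.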

Additional observations from a re-analysis of the deposited data

How the results depend on the processing

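The falls of the 3 genes kept their direction under every test, normalization, filter and left-out library tried, with log2 fold changes of -2.55 to -2.03 in Meunna and -1.96 to -1.24 in Florentine. In Meunna every member tested kept its call, 4 of 4 transcripts or, with counts summed per gene, 3 of 3 genes. In Florentine, leaving out 1 library at a time gave 0 to 3 of 3 members called; the exact test and DESeq2 without each library were added after seeing the data. With library size only, the median of all transcripts moved to 0.30 in Meunna and 0.33 in Florentine, the members changed by -2.08 to -2.03 and -1.28 to -1.24, and 30.5% and 21.7% of calls were lower, against 60.4% and 50.7% with TMM. No interaction alternative called a member, with differences of -1.03 to -0.35 without 1 library.

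The ratios between members stayed near 0, and some changed sign: Eucgr.D00476 to Eucgr.A01324 was 0.0138 with the other Meunna transcript of Eucgr.A01324 and -0.0480 to 0.0242 without 1 library, Eucgr.D00476 to Eucgr.C00246 -0.0676 to 0.00299 and Eucgr.A01324 to Eucgr.C00246 -0.0620 to -0.000562. The log2 ratio to the other CesA genes differed by -1.04 to -0.86 without 1 library.

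Same-numbered bulks did not deviate together (r of -0.08, 0.04 and 0.12 in Meunna, -0.08, 0.26 and -0.01 in Florentine), so the number does not pair them. With it as a replicate block all members stayed called, 3883 and 4725 transcripts were lower against 4444 and 4789, and the ratios differed by -0.02, -0.04 and -0.01. Depth did not limit these genes.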
